A study of Mus musculus with 8 samples.

Results

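The 68 replication-dependent histone genes listed in the deposited tables, out of 24411 genes, were examined in 4 sorted populations of mouse bone marrow progenitors. A gene was taken as a member where its symbol began with Hist1h, Hist2h, Hist3h or Hist4h. They comprised 6 H1, 18 H2A, 19 H2B, 12 H3 and 13 H4 genes, of which 54 lay in the Hist1 cluster on chromosome 13, 10 in Hist2 on chromosome 3, 3 in Hist3 on chromosome 11 and 1 in Hist4 on chromosome 6. Of these, 58 passed the filter on low counts and were tested among 13177 genes.

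All cells came from wild-type C57BL/6 mice and were KIT+ and CD16/32-, the gate of common myeloid progenitors, which give rise to granulocytes, monocytes, red cells and platelets. CD34bright cells carried CD41 and CD9 as well. The CD41- CD9- population was CD34dim. The CD48bright and CD48dim populations were CD34dim CD41+ CD9+ and were separated by CD48. Each population had 2 libraries, numbered 1 and 2 in the titles. The series' design text gives the populations other cluster numbers than the titles do, so the sort gates alone were used to group the libraries. Age and sex were not given in the labels, nor is it said whether both libraries of a population stem from different animals, and each p-value therefore reflects library-to-library spread alone, which may be technical.

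Replication-dependent histone genes supply the proteins that package newly copied DNA, and their transcripts accumulate in S phase, when DNA is replicated. H2A, H2B, H3 and H4 form the nucleosome core, and H1 binds the linker DNA between nucleosomes. Their messenger RNAs typically lack a poly(A) tail and end instead just after a conserved stem-loop, which is bound by the protein SLBP. Some of these genes also make polyadenylated forms, and replication-independent variants such as H2A.Z and H3.3 are encoded by separate genes with polyadenylated messages. In bulk RNA, a smaller share of cells in S phase and less histone RNA per cell cannot be told apart.

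The stem-loop was searched for in the GENCODE M21 transcripts of GRCm38, because it is what sets these messages apart. It was found in annotated transcripts of 44 of the 68 members and in 0.0423% of all 141767 transcripts. In addition, 9 other genes held it, among them H2afx. A transcript annotated without its 3′ end, or with other letters in the stem-loop, would be missed. The remaining members were therefore not shown to lack it. Among members, 26 carried the same form and 7 and 6 carried the next most common forms. The stem-loops of members on which the results turn are given below 5′ to 3′ as DNA letters, with the stem-loop in capitals and its flanking bases in lower case.
Hist1h1e: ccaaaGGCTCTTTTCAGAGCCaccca
Hist2h2aa1: aaaaaGGCTCTTTTCAGAGCCaccca
Hist1h2bm: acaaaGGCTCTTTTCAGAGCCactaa
Hist1h2bk: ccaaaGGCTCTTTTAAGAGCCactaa
Hist1h4d: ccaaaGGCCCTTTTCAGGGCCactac
The form in Hist1h1e was the one shared by 26 members, that in Hist1h4d was shared by 7 and that in Hist1h2bk by 6. The annotated transcripts of Hist2h2be, Hist1h2bq, Hist1h2br and Hist1h2bc, which are described further on, did not hold these letters.

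Promoters are shown for Hist1h2bk and Hist1h4d, the members with the smallest p-values between populations. The windows run from 250 bases before to 50 bases after the RefSeq start, on the plus strand of GRCm38.p6, and capitals mark the TATA box TATAAA, the CCAAT box and the octamer ATTTGCAT on either strand (TTTATA and ATTGG are the first pair read on the other strand).
Hist1h2bk, chr13:22035571-22035870: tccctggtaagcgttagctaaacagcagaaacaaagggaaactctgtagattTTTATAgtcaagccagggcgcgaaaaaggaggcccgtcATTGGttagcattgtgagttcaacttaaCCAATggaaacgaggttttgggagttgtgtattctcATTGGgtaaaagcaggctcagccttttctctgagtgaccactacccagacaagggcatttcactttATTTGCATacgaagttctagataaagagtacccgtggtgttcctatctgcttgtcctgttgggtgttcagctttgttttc
Hist1h4d, chr13:23581318-23581617: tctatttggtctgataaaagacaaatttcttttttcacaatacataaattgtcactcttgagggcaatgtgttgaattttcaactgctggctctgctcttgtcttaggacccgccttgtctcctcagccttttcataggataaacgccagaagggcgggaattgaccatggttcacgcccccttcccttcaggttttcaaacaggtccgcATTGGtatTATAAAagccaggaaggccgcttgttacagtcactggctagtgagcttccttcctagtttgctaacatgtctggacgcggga
In the Hist1h2bk window the octamer lay 30 bases before the RefSeq start and the CCAAT boxes lay 96, 132 and 160 bases before it. TATAAA read on the other strand lay 198 bases before it. The GENCODE start of this gene, 22035870, is the last base of the window, so distances from that start are longer. In the Hist1h4d window the TATA box lay 32 bases and the CCAAT box 40 bases before the start. RefSeq windows were matched for 61 members. TATAAA was present in 57.4% of them, against 13.6% of all 32851 windows, and CCAAT in 85.2%, against 37.4%. CCAAT was in all 6 H1, 17 H2A, 16 H2B and 10 H3 windows, whereas 3 of 12 H4 windows held it. The octamer was present in 7 of 17 H2A and 6 of 16 H2B windows, in none of the H1, H3 and H4 windows, and in 1.74% of all windows. These counts describe letters in the window only, and many H2A and H2B windows overlap because the genes are divergent pairs.

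There were 13 divergent pairs of an H2A and an H2B gene whose starts in GENCODE M21 lay within 500 bases of each other. Levels per transcript length, as deposited TPM averaged over the 8 libraries, could differ widely within such a pair. Hist1h2bk averaged 331.9 TPM and its partner Hist1h2ah, 302 bases away, averaged 1.17 TPM. Hist1h2bl averaged 333 TPM and Hist1h2ai, 279 bases away, averaged 26.2 TPM. In Hist1h2ak and Hist1h2bn the H2A gene was the higher one, at 113.3 and 53.9 TPM. Hist1h2ah was uncertain because the estimated reads of near-identical copies are divided between genes (posterior SD 44.6% of the mean).

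The libraries held 7237587 to 20632005 expected counts. Histone genes took between 0.03504% of counts (exact 95% interval 0.034 to 0.0361) in a CD48dim library and 0.1713% (0.169 to 0.173) in a CD34bright library. These intervals cover counting error only. Itga2b, which encodes CD41, had 2.83 and 2.18 CPM in CD41- CD9- libraries and 64.3 to 155.2 CPM in the other 6. The library kit kept no strand, so reads of overlapping genes cannot be told apart. By GENCODE M21 positions 24 members overlapped another gene, and for 3 of them (Hist1h1e with Hist1h2be, and Hist3h2a with Trim17) that gene also had counts. Near-identical copies share reads, which the authors' estimation divides. In 38 members the posterior SD of the count was at most 5% of its mean, and in 18 it was above 10%.

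Summed over all 68 members, histone transcript levels were highest in CD34bright libraries and lowest in CD48dim libraries. The sums, in scaled CPM, the count relative to the library's scaled total, were 1307 and 1828 in CD34bright, 1131 and 489.5 in CD41- CD9-, 1012 and 455.4 in CD48bright, and 328.1 and 403.4 in CD48dim, with library 1 before library 2. Both CD34bright libraries lay above the other 6 and both CD48dim libraries below. The CD41- CD9- and CD48bright libraries overlapped each other, and in both populations library 2 had less than library 1. The means were 1567 ± 369 CPM in CD34bright, 810.0 ± 453 in CD41- CD9-, 733.5 ± 393 in CD48bright and 365.8 ± 53.3 in CD48dim (SD, n = 2 each). The CD34bright mean was 4.29-fold that of CD48dim, the CD41- CD9- mean 2.21-fold and the CD48bright mean 2.01-fold. CD34bright was 2.14-fold CD48bright and 1.94-fold CD41- CD9-, and CD41- CD9- was 1.1-fold CD48bright.

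**Figure D1:**
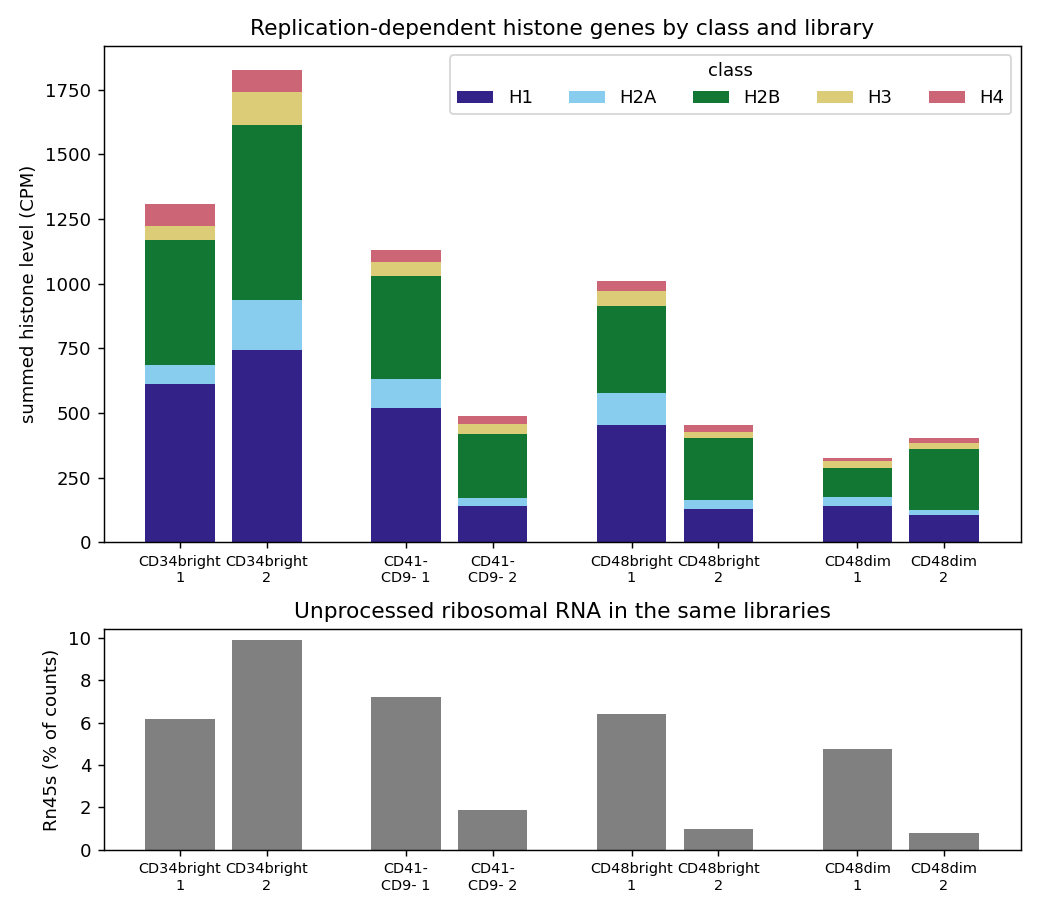
Top, summed level of histone genes (CPM) in each of the 8 libraries, stacked by class from H1 at the bottom to H4 at the top. Bottom, share of counts (%) from the ribosomal RNA precursor gene Rn45s in the same libraries. The CD34bright bars reach 1307 and 1828 CPM and the CD48dim bars 328.1 and 403.4 CPM, and in the CD41- CD9- and CD48bright populations both the histone sum and the Rn45s share are lower in library 2.

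Summed over all members, the fold of CD34bright over CD48dim was similar among libraries 1 and among libraries 2, but that of the populations in between was not. Without the 3 long-transcript genes described below, the CD34bright to CD48dim fold was 4.21 among libraries 1 and 6.28 among libraries 2. By class it was larger among libraries 2 in H1, H2A and H3, and smaller in H2B and H4. Among libraries numbered 1, the sum was 3.98-fold that of CD48dim in CD34bright, 3.45-fold in CD41- CD9- and 3.08-fold in CD48bright. Among libraries numbered 2, it was 4.53-fold in CD34bright, 1.21-fold in CD41- CD9- and 1.13-fold in CD48bright. CD34bright was 1.16-fold CD41- CD9- among libraries 1 and 3.73-fold among libraries 2, and 1.29-fold and 4.01-fold CD48bright. With CD41- CD9- or CD48bright represented by library 2 alone, those populations lay near CD48dim, and with library 1 alone near CD34bright. CD41- CD9- and CD48bright differed little within either number, at 1.12-fold among libraries 1 and 1.08-fold among libraries 2.

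All 5 classes had their highest mean in CD34bright and their lowest in CD48dim. H1 genes summed to 610.8 and 742.4 CPM in CD34bright, 518.6 and 140.6 in CD41- CD9-, 452.9 and 130.7 in CD48bright, and 140.4 and 107.5 in CD48dim. H4 genes summed to 82.5 and 86.7 CPM in CD34bright, 46.5 and 30.7 in CD41- CD9-, 41.0 and 27.3 in CD48bright, and 13.7 and 19.8 in CD48dim. In H4 no CD41- CD9- or CD48bright library overlapped those of CD34bright or CD48dim, whereas the H1 sum of CD48dim library 1 lay above that of CD48bright library 2. H2A genes averaged 135.3 ± 85.2 CPM in CD34bright, 72.3 ± 56.1 in CD41- CD9-, 78.0 ± 64 in CD48bright and 28.1 ± 12.2 in CD48dim. H2B genes averaged 579.8 ± 136 CPM in CD34bright, 321.9 ± 110 in CD41- CD9-, 289.2 ± 71.5 in CD48bright and 172.3 ± 86 in CD48dim. H3 genes averaged 91.2 ± 51.8 CPM in CD34bright, 47.7 ± 8.83 in CD41- CD9-, 40.4 ± 20.4 in CD48bright and 24.6 ± 1.6 in CD48dim (SD, n = 2 each). In H2A the CD34bright libraries had 75.1 and 195.6 CPM, and library 1 lay below library 1 of CD41- CD9- (112) and CD48bright (123.2). The H2A sum of CD48dim was 36.7 and 19.5 CPM, and library 1 lay above library 2 of CD41- CD9- (32.6) and CD48bright (32.7). In H3 the CD34bright libraries had 54.5 and 127.8 CPM, and library 1 lay just below library 1 of CD48bright (54.8). The CD34bright mean was 5.46-fold that of CD48dim for H1, 4.81-fold for H2A, 3.36-fold for H2B, 3.7-fold for H3 and 5.06-fold for H4.

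Per transcript length, the H2B genes were the most abundant class in every library. The summed TPM of H2B was 2710 and 4233 in CD34bright, 2799 and 1227 in CD41- CD9-, 2067 and 1116 in CD48bright, and 523.4 and 822.3 in CD48dim. The summed TPM of H3 was the lowest or second lowest in every library, from 165.2 in a CD48dim library to 836.2 in a CD34bright library. The 5 members with the highest mean TPM, Hist1h1e, Hist1h4d, Hist1h2bl, Hist1h2bk and Hist1h2bm, held on average 38.5% of the summed histone TPM. By cluster, Hist1 genes took 93.2% and 89.2% of histone CPM in CD34bright, 90.4% and 82.5% in CD41- CD9-, 90.1% and 81.1% in CD48bright, and 84.2% and 80.2% in CD48dim. The Hist2 sum in CD34bright was 2.17-fold that of CD48dim, against 4.75-fold for Hist1. That difference between clusters was not tested.

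Across single genes, the edgeR quasi-likelihood test on all 8 libraries called 1 member between CD34bright and CD48dim at an adjusted p below 0.05, where 0.577% of all tested genes were called. It was Hist1h2bk, an H2B gene on chr13:22035870-22036345 of GRCm38. Hist1h2bk had 88.8 and 117.2 CPM in CD34bright, 57.6 and 33.6 in CD41- CD9-, 44.2 and 27.1 in CD48bright, and 5.65 and 14.3 in CD48dim. The 4 populations did not overlap except for CD41- CD9- with CD48bright. Hist1h2bk rose in CD34bright against CD48dim by 3.38 ± 0.56 on the log2 scale (SE, adjusted p = 0.0399 by edgeR). In the same fit it was the only member called for any difference among the populations (adjusted p = 0.0479), where 2.44% of all genes were called. The call did not hold in every fit. With only the libraries of both populations Hist1h2bk had an adjusted p of 0.262 (edgeR), in a fit that called 0 of 12460 genes. Without any one of the CD34bright, CD41- CD9- or CD48bright libraries its log2 differences were 3.24 to 3.58.

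Most members nevertheless lay higher in CD34bright than in CD48dim. Of the 58 tested, 54 had a higher fitted level in CD34bright, where 47% of all genes did. Their median log2 difference was 2.35, beside -0.07 over all genes. The libraries did not overlap in 41 members, each higher in CD34bright, where 23.1% of all genes were so. At an unadjusted p below 0.05, edgeR counted 23 members as higher and 0 as lower, where 8.26% of all genes were higher. DESeq2 called 17 members higher at an adjusted p below 0.05, where it called 4.08% of all genes higher. By limma-voom 1 member was called, and 0.342% of all genes. Without CD48dim library 1 edgeR called 23 members and 28.4% of all genes, and without CD48dim library 2 it called 8 members and 4.84% of all genes. The median was 1.64 without CD34bright library 2 and 3.35 without CD48dim library 1. The DESeq2 calls were all 5 tested H1 genes, 1 H2A, 7 H2B, 3 H3 and 1 H4 gene. In all, 47 of the 58 had their highest mean in CD34bright, as 23.1% of all genes did, and 46 had their lowest mean in CD48dim, as 33.2% did.

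**Figure D2:**
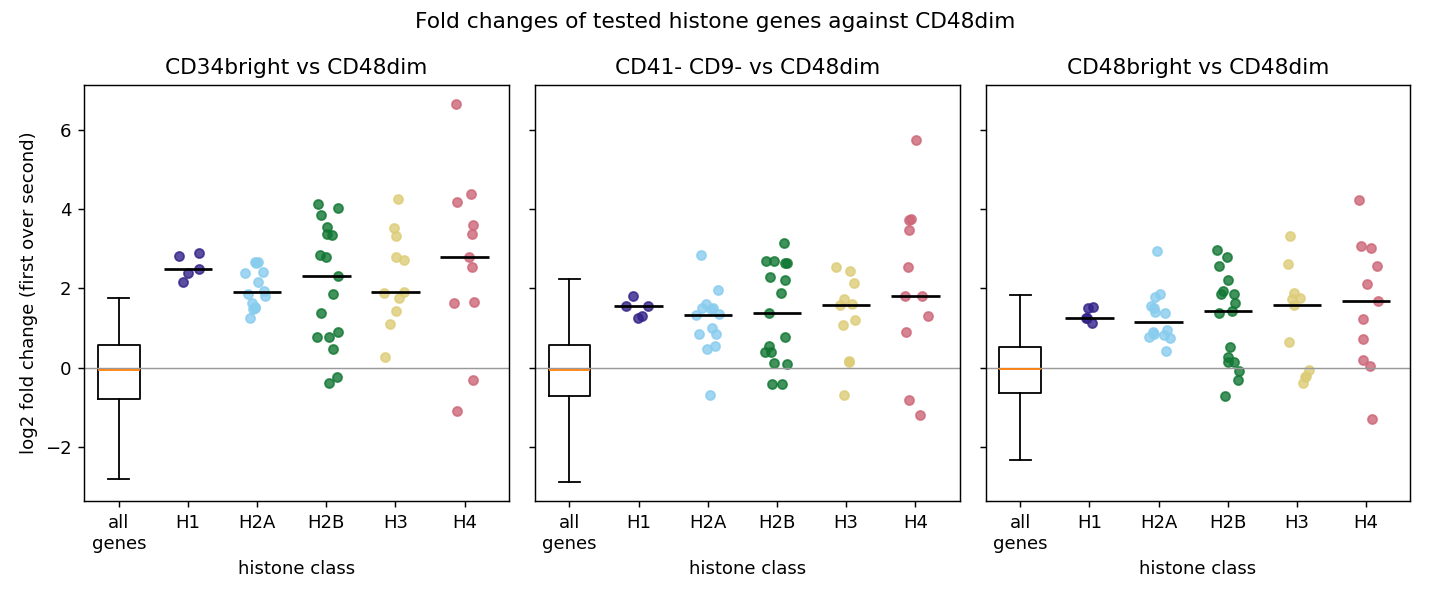
Log2 fold change of each tested histone gene (points, black line at the class median) in CD34bright, CD41- CD9- and CD48bright, each against CD48dim. The box at the left of each panel spans the interquartile range of all 13177 tested genes, with whiskers at their 5th and 95th percentiles. Class medians in CD34bright against CD48dim lie between 1.90 for H2A and 2.79 for H4, and the 2 H4 points below 0 are Hist1h4k and Hist1h4n.

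Against CD48dim, the CD41- CD9- and CD48bright populations showed smaller differences in the same direction, and all 3 comparisons share the CD48dim libraries. In CD41- CD9-, 52 of 58 members were higher with a median log2 difference of 1.49, beside -0.06 over all genes. The edgeR test called 0 members there, where 4.02% of all genes were called, while 10 members were higher at an unadjusted p below 0.05 (9.3% of all genes). DESeq2 called 6 (5.56% of all genes higher) and limma-voom 0 (3.57% of all genes). The libraries did not overlap in 31 members, all higher in CD41- CD9-, beside 22.5% of all genes. In CD48bright, 50 of 58 members were higher with a median of 1.40, beside -0.03. The edgeR test again called 0 (0.387% of all genes), with 10 higher at an unadjusted p below 0.05 (6.85%). DESeq2 called 4 (2.61%) and limma-voom 0 (0.0379%). There 26 members did not overlap and were higher, beside 20.2% of all genes. Without CD48dim library 1 edgeR called 15 members in CD41- CD9- (23.9% of all genes) and 10 in CD48bright (23.3%). Without CD48dim library 2 it called 4 in CD41- CD9- (10.4% of all genes) and 3 in CD48bright (2.92%). The medians were 0.68 without CD41- CD9- library 1 and 0.43 without CD48bright library 1. Hist1h2bk had the smallest p in both, with a log2 difference of 2.21 ± 0.53 in CD41- CD9- (adjusted p = 0.054 by edgeR) and 1.85 ± 0.53 in CD48bright (adjusted p = 0.182 by edgeR).

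Among the other pairs, edgeR called 0 members. In CD34bright against CD48bright, 52 of 58 members were higher (median 0.96, beside -0.01 over all genes, and 0.50 without CD34bright library 2 or 1.93 without CD48bright library 1). There edgeR called 0% of all genes, and 3 members were higher at an unadjusted p below 0.05 (0.372% of all genes). DESeq2 (0.281% of all genes) and limma-voom (0%) called 0 members. In CD34bright against CD41- CD9-, 50 of 58 were higher (median 0.92, beside 0.004, and 0.35 without CD34bright library 2 or 1.61 without CD41- CD9- library 1). Here edgeR called 0.842% of all genes, and 2 members were higher at an unadjusted p below 0.05 (4.01% of all genes). DESeq2 (4.74% of all genes) and limma-voom (1.11%) called 0 members. A fit of those populations' 4 libraries alone called 3 of the 55 members it tested, namely Hist1h1b, Hist1h2bk and Hist1h4d, where it called 8.7% of all genes. In CD41- CD9- against CD48bright, 35 members were higher and 23 lower (median 0.12, beside -0.02, and -0.58 without CD41- CD9- library 1 or 0.75 without CD48bright library 1). At an unadjusted p below 0.05 there were 0 members (3.73% of all genes higher). DESeq2 (2.78% of all genes) and limma-voom (0.288%) called 0 members, and edgeR called 0.212% of all genes. There 4 members did not overlap and were higher (19.7% of all genes) and 3 were lower (20.4%).

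**Figure D3:**
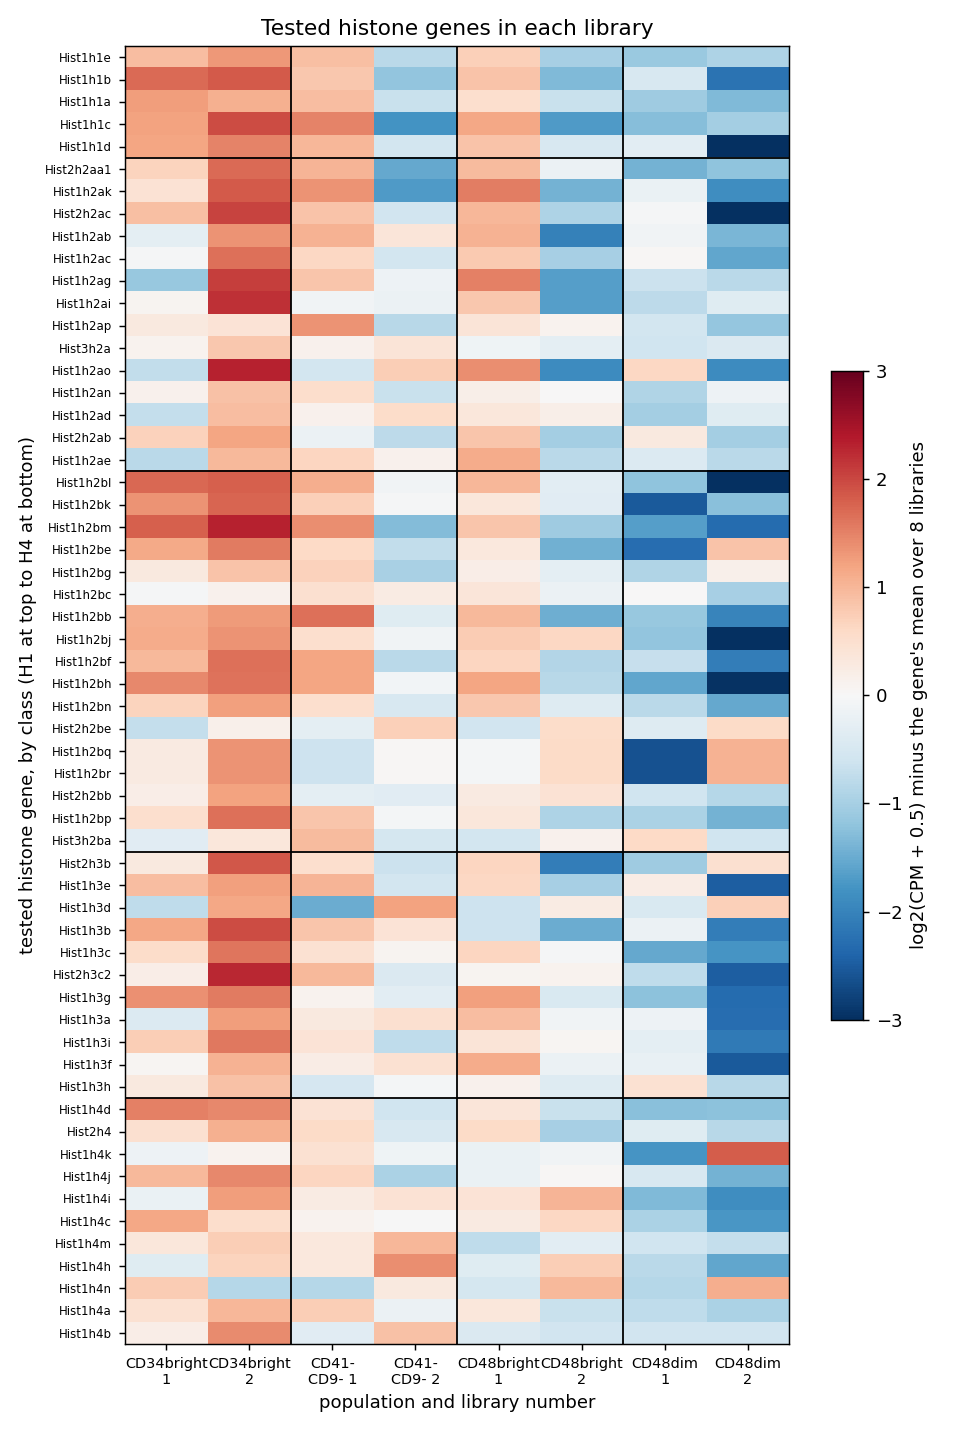
Level of each of the 58 tested histone genes in each library, as log2(CPM + 0.5) minus the gene's mean over the 8 libraries, with classes separated by horizontal lines and populations by vertical lines. Red is above and blue below the gene's mean. The CD34bright library 2 column is red in nearly all rows, CD48dim is mostly blue, and the Hist2h2be, Hist1h2bq and Hist1h2br rows follow another pattern.

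The 5 tested linker histone genes all had their highest mean in CD34bright and their lowest in CD48dim. Hist1h1e, the most abundant member by mean TPM (513.6), had 241.1 and 314.7 CPM in CD34bright, 235.9 and 72.3 in CD41- CD9-, 206.8 and 63.5 in CD48bright, and 58.1 and 66.6 in CD48dim. CD34bright did not overlap the others, and the lower libraries of CD41- CD9- and CD48bright lay at the CD48dim level. Its log2 difference in CD34bright against CD48dim was 2.16 ± 0.64 (adjusted p = 0.135 by edgeR). Hist1h1b, the second by mean TPM in its class, had 163.5 and 179.0 CPM in CD34bright, 88.4 and 21.7 in CD41- CD9-, 90.2 and 19.5 in CD48bright, and 35.5 and 10.4 in CD48dim. All 5 tested H1 genes were non-overlapping and higher in CD34bright than in CD48dim, with log2 differences of 2.16 to 2.89, and 23.1% of all genes were likewise higher without overlap. The H1 genes had practically no shared reads, although Hist1h1e overlaps Hist1h2be in the annotation. Hist1h1c, whose human counterpart also makes a polyadenylated message, had 61.2 and 104.1 CPM in CD34bright, 74.5 and 7.19 in CD41- CD9-, 59.1 and 7.68 in CD48bright, and 10.6 and 12.6 in CD48dim.

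Among H2A genes, Hist2h2aa1 and Hist1h2ak were the most abundant by mean TPM. Hist2h2aa1 had 31.4 and 64.5 CPM in CD34bright, 39.8 and 6.38 in CD41- CD9-, 38.3 and 17.1 in CD48bright, and 7.05 and 8.25 in CD48dim. Hist1h2ak had 16.8 and 45.1 CPM in CD34bright, 31.7 and 3.39 in CD41- CD9-, 36.6 and 4.3 in CD48bright, and 10.6 and 3.02 in CD48dim. CD34bright lay above CD48dim without overlap in both genes, while the remaining populations spanned most of the range. Hist2h2ac had 8.35 and 18.8 CPM in CD34bright, 8.11 and 2.66 in CD41- CD9-, 8.95 and 2.01 in CD48bright, and 4.11 and 0 in CD48dim. Hist1h2ac, with a human counterpart that is polyadenylated in part, had 3.05 and 10.9 CPM in CD34bright and 3.24 and 0.736 in CD48dim, which overlapped. Hist2h2ab and Hist3h2a were low, at up to 1.78 and 3.91 CPM. All 14 tested H2A genes had a fitted level that was higher in CD34bright than in CD48dim, by 1.26 to 2.67 on the log2 scale, and 1 of them had an unadjusted p below 0.05, where 8.26% of all genes were higher at that p.

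The H2B class held Hist1h2bk, described above, and members that did not follow the order of the sums. Hist1h2bl, the most abundant H2B gene by mean TPM, had 74.6 and 77.7 CPM in CD34bright, 48.1 and 20.6 in CD41- CD9-, 44.3 and 17.8 in CD48bright, and 9.25 and 0.936 in CD48dim. Its log2 difference in CD34bright against CD48dim was 3.85 ± 0.92 (adjusted p = 0.0865 by edgeR). Hist1h2bm, chosen after its values were seen, had 74.4 and 105.2 CPM in CD34bright, 55.8 and 8.15 in CD41- CD9-, 37.8 and 9.69 in CD48bright, and 6.31 and 3.85 in CD48dim, a log2 difference of 4.13 ± 0.95 between the same populations (adjusted p = 0.0809 by edgeR). In both genes the populations at the ends did not overlap. Of 17 tested H2B genes, 12 were higher without overlap in CD34bright than in CD48dim, where 23.1% of all genes were so.

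Hist2h2be, whose human counterpart makes a long polyadenylated message, did not follow the order of the sums. It had 22.3 and 41.6 CPM in CD34bright, 30.3 and 60.9 in CD41- CD9-, 24.8 and 54.4 in CD48bright, and 28.6 and 55.4 in CD48dim. Every population overlapped every other, and library 2 was higher than library 1 in all 4. Its log2 difference in CD34bright against CD48dim was -0.39 ± 0.57 (adjusted p = 0.747 by edgeR). Its divergent partner Hist2h2ac, 239 bases away and described above, was lower in library 2 than in library 1 in each population other than CD34bright. Hist1h2bq and Hist1h2br, chosen after their values were seen, carried identical estimates because their reads could not be divided (posterior SD 44.5% and 43.8% of the mean). Each had 22.7 and 49.1 CPM in CD34bright, 11.99 and 19.4 in CD41- CD9-, 18.1 and 28.2 in CD48bright, and 2.68 and 39.6 in CD48dim.

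Hist2h2be, Hist1h2bq and Hist1h2br were the members with a mean transcript length over 1000 bases in the deposited tables. Together they summed to 67.6 and 139.7 CPM in CD34bright, 54.3 and 99.8 in CD41- CD9-, 61.1 and 110.7 in CD48bright, and 33.9 and 134.6 in CD48dim. They took 33.4% of histone CPM in CD48dim library 2, and 4.8% in CD41- CD9- library 1. Without them, the histone sums were 1239 and 1688 CPM in CD34bright, 1076 and 389.8 in CD41- CD9-, 950.7 and 344.6 in CD48bright, and 294.1 and 268.8 in CD48dim. Then both CD48dim libraries still lay lowest, and the CD34bright to CD48dim fold was 4.21 among libraries 1 and 6.28 among libraries 2.

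Hist1h2bc, also chosen after its values were seen, varied less between populations. It had 24.5 and 27.5 CPM in CD34bright, 35.1 and 29.8 in CD41- CD9-, 32.2 and 22.2 in CD48bright, and 25.2 and 12.4 in CD48dim, with the highest mean in CD41- CD9-. Hist1h2be, also chosen after its values were seen, had 1 high CD48dim library, with 49.6 and 67.2 CPM in CD34bright, 34.4 and 13.2 in CD41- CD9-, 28.0 and 7.88 in CD48bright, and 4.24 and 41.0 in CD48dim. The deposited tables list 3 transcripts for it. Its mean transcript length weighted by their estimated use was 455.6 to 560.2 bases in the other 7 libraries and 2480 bases in CD48dim library 2, the library in which it was high. The remaining Hist2 and Hist3 H2B genes were low, Hist2h2bb at 0.962 to 5.62 CPM and Hist3h2ba at 0.137 to 1.34 CPM.

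**Figure D4:**
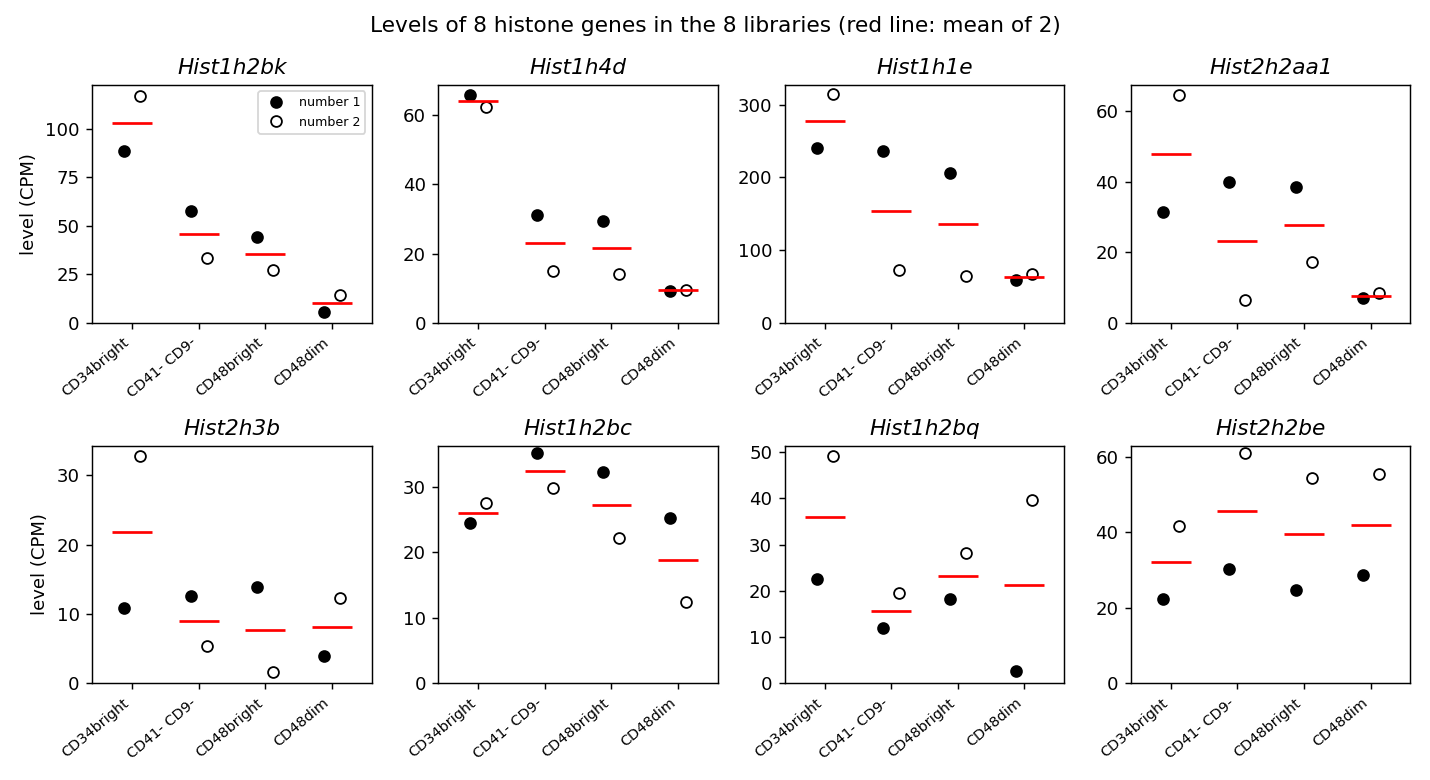
Level (CPM) of 8 histone genes in each library, with filled points for library 1, open points for library 2 and a red line at the mean of both, in the order CD34bright, CD41- CD9-, CD48bright and CD48dim. Hist1h2bk lies at 88.8 and 117.2 CPM in CD34bright and at 5.65 and 14.3 CPM in CD48dim, whereas Hist2h2be is split by library number in each population.

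H3 and H4 genes had thinner counts, and not all of them followed the order of the sums. The mean was highest in CD34bright in 11 of 11 tested H3 genes and 6 of 11 H4 genes, and lowest in CD48dim in 7 H3 genes and 9 H4 genes. Hist2h3b, the most abundant H3 gene by mean TPM, had 10.8 and 32.7 CPM in CD34bright, 12.6 and 5.36 in CD41- CD9-, 13.8 and 1.67 in CD48bright, and 3.91 and 12.3 in CD48dim, so that all populations overlapped. Hist1h3e had 10.6 and 13.2 CPM in CD34bright, 11.4 and 3.48 in CD41- CD9-, 8.49 and 2.43 in CD48bright, and 6.36 and 0.558 in CD48dim. Hist2h3c2 had 4.72 and 21.2 CPM in CD34bright and 2.19 and 0.315 in CD48dim, with a posterior SD of 27% of its mean. All 11 tested H3 genes had a fitted level that was higher in CD34bright than in CD48dim, and 7 did not overlap, where 23.1% of all genes were higher without overlap.

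Hist1h4d supplied most of the H4 signal, with a mean of 396.3 TPM against 33.1 TPM for Hist2h4, the next H4 gene. Hist1h4d (chr13:23581598-23582735) had 66.0 and 62.5 CPM in CD34bright, 31.2 and 14.9 in CD41- CD9-, 29.4 and 14.1 in CD48bright, and 9.25 and 9.34 in CD48dim. The CD41- CD9- and CD48bright libraries overlapped each other and lay between the other populations. Its log2 difference was 2.79 ± 0.54 in CD34bright against CD48dim (adjusted p = 0.0575 by edgeR) and 1.48 ± 0.51 in CD34bright against CD41- CD9- (adjusted p = 0.304 by edgeR). It had no shared reads. Hist2h4 had 3.46 and 5.4 CPM in CD34bright, 3.7 and 1.53 in CD41- CD9-, 3.69 and 0.914 in CD48bright, and 1.69 and 1.1 in CD48dim. Of 11 tested H4 genes, 9 were higher without overlap in CD34bright than in CD48dim, where 23.1% of all genes were so.

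The 10 untested members were at or near the detection limit. A count of 0 in a library allows a level of up to 0.155 CPM in the deepest and 0.412 CPM in the shallowest library, taking 3 counts as the limit. The genes known for expression in the testis were among them: Hist1h2aa had 0 reads in every library, Hist1h2ba had reads in 1 library (0.139 CPM), and Hist1h1t had at most 0.787 CPM. Hist2h3c1 was also at 0 throughout, and Hist2h2aa2 had reads in 1 library (0.501 CPM). Both have near-identical neighbours in the Hist2 cluster with which they can share reads. Hist1h2af, Hist1h2ah, Hist1h4f, Hist3h2bb-ps and Hist4h4 reached 0.294 to 0.888 CPM.

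The library numbers also divided the histone genes. The median log2 ratio of library 2 over library 1 across tested members, with 0.5 CPM added, was 0.69 in CD34bright, -0.91 in CD41- CD9-, -1.03 in CD48bright and -0.57 in CD48dim. Over all genes it was -0.01 in CD34bright, -0.005 in CD41- CD9-, -0.01 in CD48bright and -0.14 in CD48dim. Library 2 was higher in 54 of 58 tested members in CD34bright, 15 in CD41- CD9-, 14 in CD48bright and 18 in CD48dim. The labels do not say what the numbers mark.

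Rn45s, the precursor of ribosomal RNA, which has no poly(A) tail, changed between library numbers in the same direction as the histone sum without long-transcript genes. It took 6.18% and 9.93% of counts in CD34bright, 7.24% and 1.86% in CD41- CD9-, 6.41% and 0.969% in CD48bright, and 4.76% and 0.79% in CD48dim. The ratio of library 2 to library 1 was 1.61 for Rn45s and 1.36 for that histone sum in CD34bright, 0.246 and 0.362 in CD41- CD9-, 0.14 and 0.362 in CD48bright, and 0.176 and 0.914 in CD48dim. The sum over all 68 members went the other way from Rn45s in CD48dim, where its ratio was 1.23. So did the H2B sum without long-transcript genes (1.27) and the H4 sum (1.45). In both classes the rise of 1 gene, chosen after its values were seen, was larger than that of the sum. Hist1h2be, of weighted length 2480 bases in CD48dim library 2, went from 4.24 to 41.0 CPM and that H2B sum from 77.6 to 98.6. Hist1h4k went from 0.147 to 7.28 CPM and the H4 sum from 13.7 to 19.8. Malat1, a nuclear RNA, was higher in library 2 of each population, by 2.27-fold in CD34bright, 1.57-fold in CD41- CD9-, 1.74-fold in CD48bright and 3.77-fold in CD48dim. The part of these differences in the histone levels was not tested. With Rn45s and Malat1 left out of the library totals, the median histone difference of CD34bright against CD48dim was 2.41. That fit kept the histone counts as they were, so it is no test of that part.

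**Figure D5:**
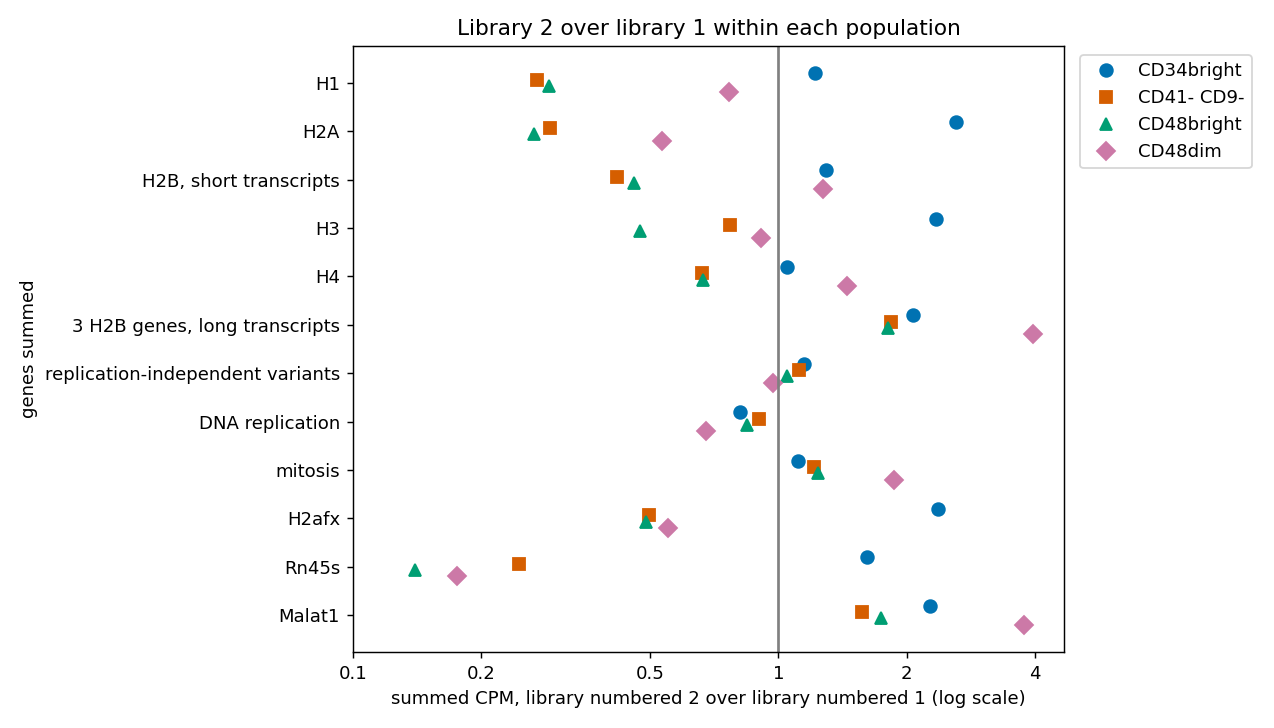
Ratio of summed CPM in library 2 over library 1 (log scale) within each population, for histone classes, related gene lists and single genes. The ratio for H1 is 1.22 in CD34bright and 0.271 in CD41- CD9-, that for the replication-independent variants lies between 0.97 and 1.15 in the 4 populations, and that for H2afx is 2.37 in CD34bright and 0.549 in CD48dim.

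The sum of replication-independent histone variants, many of which are made throughout the cell cycle, differed less between library numbers. Single listed genes such as H2afx, described below, differed more. The 18 listed genes summed to 4950 and 5709 CPM in CD34bright, 4241 and 4770 in CD41- CD9-, 3714 and 3917 in CD48bright, and 2043 and 1983 in CD48dim. CD34bright lay above and CD48dim below the others, without overlap. Of 10 tested, edgeR called 1 higher in CD34bright than in CD48dim: H2afz, encoding H2A.Z, rose by 2.2 ± 0.36 on the log2 scale (adjusted p = 0.04). It had 2202 and 2805 CPM in CD34bright, 1196 and 1529 in CD41- CD9-, 1387 and 1602 in CD48bright, and 527.8 and 563.9 in CD48dim. In CD41- CD9- against CD48dim, H2afy (macroH2A1) rose by 1.98 ± 0.38 (adjusted p = 0.0241), H3f3a (H3.3) rose by 1.43 ± 0.31 (adjusted p = 0.0378) and H1f0 (H1.0) fell by 1.64 on the log2 scale (adjusted p = 0.0485), all by edgeR. H2afx is a variant whose message is made both with a stem-loop and with a poly(A) tail. It had 173.6 and 410.6 CPM in CD34bright, 189.3 and 94.1 in CD41- CD9-, 159.4 and 77.7 in CD48bright, and 83.5 and 45.9 in CD48dim, and its ratios between libraries (2.37 in CD34bright, 0.497 in CD41- CD9-, 0.488 in CD48bright and 0.549 in CD48dim) had the direction of the histone sum without long-transcript genes in every population, but not that of the sum over all members in CD48dim. It was chosen after its values were seen.

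The genes that make and process histone messages did not all show the order of the histones. Of 26 listed genes for histone transcription and 3′ end processing, 15 were higher in CD34bright than in CD48dim (median log2 difference 0.26, beside -0.07 over all genes) and edgeR called 0, with 4 at an unadjusted p below 0.05 (19% of all genes). Slbp, the stem-loop binding protein, had 147.3 and 135.5 CPM in CD34bright, 162.6 and 206.3 in CD41- CD9-, 155.3 and 178.4 in CD48bright, and 78.6 and 94.3 in CD48dim. Npat, the coactivator of histone gene transcription, had 96.2 and 153.7 CPM in CD34bright, 117.5 and 146.3 in CD41- CD9-, 103.2 and 129.5 in CD48bright, and 67.8 and 196.8 in CD48dim. Slbp lay lowest in CD48dim without overlap, and Npat overlapped throughout. Among 22 histone chaperone and acetylation genes edgeR called 0 between CD34bright and CD48dim, with 7 at an unadjusted p below 0.05 (19% of all genes). In CD41- CD9- against CD48dim it called 1, Hat1, which acetylates new H4 and rose by 1.42 ± 0.30 on the log2 scale (adjusted p = 0.0334).

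DNA replication genes, which work in the same phase, were lower in CD48dim and overlapped among the other populations. The 39 genes summed to 6366 and 5161 CPM in CD34bright, 5335 and 4804 in CD41- CD9-, 6282 and 5303 in CD48bright, and 4201 and 2845 in CD48dim. In CD34bright against CD48dim 35 were higher (median 0.88), edgeR called 0, and 17 had an unadjusted p below 0.05 (19% of all genes). In CD34bright against CD48bright the median was 0.001, beside 0.96 for the tested histone genes. The 24 mitosis genes summed to 7210 and 8014 CPM in CD34bright, 5181 and 6280 in CD41- CD9-, 4886 and 6069 in CD48bright, and 2549 and 4774 in CD48dim. All 24 were higher in CD34bright than in CD48dim, where 47% of all genes were. There edgeR called 6 (0.577% of all genes), among them Ccnb1, Ccna2, Cdk1 and Aurkb with log2 rises of 1.93 to 2.52. Of 19 E2F and retinoblastoma family genes edgeR called 0 in that comparison, with 3 at an unadjusted p below 0.05 (19% of all genes). In CD41- CD9- against CD48dim it called Foxm1 higher, where 4.02% of all genes were called.

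Markers of other cells moved with the populations in part. The 10 mature neutrophil genes summed to 130.7 and 165.6 CPM in CD34bright, 702.0 and 49.9 in CD41- CD9-, 157.1 and 115.2 in CD48bright, and 4175 and 624.8 in CD48dim. Of these, Cxcr2 went the other way, with means of 71.4 CPM in CD34bright and 11.2 in CD48dim. Mmp8 had its highest mean in CD41- CD9- (15.0 CPM, beside 11.6 in CD48dim). The 4 haemoglobin genes summed to 4.36 to 18.5 CPM outside CD48dim and to 197.1 and 32.7 CPM in CD48dim. The 7 B cell genes summed to 115.9 and 84.3 CPM in CD41- CD9- and to 11.8 to 56.0 CPM in the other libraries. The 7 T and NK cell genes summed to 66.6 to 414 CPM, most of it from Nkg7 outside CD41- CD9-. Lck (44.2 and 41.5 CPM) and Klrd1 (29.3 and 20.8 CPM) were highest in CD41- CD9-. Both were called higher there than in CD48dim by edgeR, where 4.02% of all genes were called. Nkg7, Cd3e and Cd3g had their highest mean in CD48bright. No listed gene of these sets was at 0 in all libraries. The 10 stem cell genes summed to 708.6 and 1059 CPM in CD34bright, 276.1 and 423.2 in CD41- CD9-, 778.3 and 796.3 in CD48bright, and 2035 and 3052 in CD48dim. The 7 platelet genes summed to 91.7 and 135.0 CPM in CD34bright, 7.58 and 6.86 in CD41- CD9-, 117.3 and 96.5 in CD48bright, and 218.3 and 217.8 in CD48dim. By mean, CD48dim, the population lowest in histone messages, was highest in neutrophil, haemoglobin, stem cell and platelet genes. Their part in the histone result was not tested.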

How the data were processed

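Per the labels' protocols, 5 ng of total RNA was amplified by the Ovation RNA-Seq System V2, and the cDNA was sequenced on an Illumina NovaSeq without strand. The submitters' processing notes name STAR 2.7.2a, RSEM 1.3.2, edgeR 3.30.3 and mm10. The values used were, per the file headers, expected counts, TPM, effective lengths in bases, and the posterior mean and SD of each count, a signal deposited by the authors that shows read sharing. The authors' second count tables were not used. Uptake of RNA without a poly(A) tail in the amplification was not analysed here.

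Expected counts were rounded (up to 2.2% were not whole). Genes passing filterByExpr were scaled by TMM and tested in edgeR 4.0.16 (R 4.3.3) with the quasi-likelihood F-test, 1 mean per population, all 8 libraries and 4 residual degrees of freedom. Adjusted p is Benjamini-Hochberg over 13177 genes, called below 0.05. SE is the log2 difference divided by the square root of F. CPM are per scaled total. Fold changes have the first-named population on top. DESeq2 1.42.0 and limma-voom 3.58.1 were alternatives. The script was tested on simulated data. The members, gene lists and tests were chosen with earlier results of these data known. Named with values were called members, the 2 most abundant per class by TPM, tested Hist2, Hist3 and Hist4 genes, and testis and partly polyadenylated members, beside those said to be chosen after their values were seen. Groups followed the sort gates.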

Additional observations from a re-analysis of the deposited data

How the results depend on the processing

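In CD34bright against CD48dim the median log2 difference of the tested histone genes and the log2 ratio of their sums were positive under every alternative run. The number of members called was not stable, and the cause was not tested. In that comparison it was 16 with no filter, 17 by DESeq2, 0 with only the libraries of both populations, and 0 to 23 with a library left out. In CD41- CD9- against CD48dim it was 1 with no scaling beyond the total, 8 with no filter, 6 by DESeq2 and 0 to 15 with a library left out. The fit with no filter tested 66 members. It called 5.51% of all genes in CD34bright against CD48dim and 6.44% in CD41- CD9- against CD48dim. By DESeq2, with 58 members tested, these shares were 9.77% and 11.7%. The fit of CD34bright and CD48dim alone tested 54 members and called 0% of all genes. With no scaling beyond the total, 3.89% of all genes were called in CD41- CD9- against CD48dim, with 58 members tested. In CD48bright against CD48dim the number of members called was 6 of 66 with no filter (3.18% of all genes) and 4 of 58 by DESeq2 (5.76%). In CD34bright against CD41- CD9- it was 1 of 66 with no filter (2.88%) and 3 of 55 in the pair alone (8.7%). For any difference it was 14 of 66 with no filter (8.69%), 9 of 58 by DESeq2 (13%) and 0 of 58 with a length offset (2.37%). Counts also changed with a library left out. Where a library was left out, the lone library of its population was assumed to vary like the others.

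With a replicate block on the library number, 10 members were called in CD34bright against CD48dim, 3 in CD41- CD9- against CD48dim and 6 for any difference. The numbers are not said to pair libraries, there are 2 of them, and deviations of same-numbered libraries correlated across genes at 0.112 to 0.222. Over all genes the block moved the count to 682, beside 76 without it, in CD34bright against CD48dim, to 965, beside 530, in CD41- CD9- against CD48dim and to 764, beside 322, for any difference.

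With 1 library left out, the median ranged from 1.644 to 3.35 in CD34bright against CD48dim, 0.682 to 2.542 in CD41- CD9- against CD48dim, 0.434 to 2.217 in CD48bright against CD48dim, 0.504 to 1.929 in CD34bright against CD48bright, -0.585 to 0.751 in CD41- CD9- against CD48bright and 0.352 to 1.609 in CD34bright against CD41- CD9-. The log2 ratio of the sums ranged over 1.837 to 2.321, 0.421 to 1.628, 0.316 to 1.468, 0.632 to 1.783, -0.583 to 0.831 and 0.471 to 1.679 in the same order of comparisons. Chosen after seeing the data, libraries numbered 1 alone gave log2 ratios of 1.785 in CD41- CD9- against CD48dim, 0.369 in CD34bright against CD48bright and 0.209 in CD34bright against CD41- CD9-. Libraries numbered 2 alone gave 0.279, 2.005 and 1.901 in these, and 0.175 in CD48bright against CD48dim. Sums over members with little read sharing, or without the long-transcript genes, were also chosen after seeing the data. Their log2 ratios moved by less than the SD between libraries pooled over all 4 populations (0.623). That SD is widened by CD41- CD9- and CD48bright, so it is a coarse measure. In CD34bright against CD48dim the log2 ratio was 2.1 over all members, 2.213 with little read sharing and 2.379 without the long-transcript genes. With 2 libraries per population, members with few counts were the least precise.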
